A study of Homo sapiens with 18 samples.

Results

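Dicer1 knockdown raised 7 genes several-fold in TPC1 cells, in their D11 clone or in both: SYP, AL356234.2, F2RL1, BAAT, GOLGA7B, TRIM67 and COL6A5. They are 7 of the 58302 genes of the deposited table. These genes were chosen by their measured values, being low in the control libraries and much higher in the siDicer libraries, so their rise in siDicer is given as a description, with no test. Each control is set against siDicer apart.

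TPC1 is an established human line of papillary thyroid carcinoma cells, with the labelled genotype wt, and D11 is a single Dicer1 (+/-) clone of it made with CRISPR-Cas9, so a difference between D11 and TPC1 cannot be told apart from a difference between clones. Messenger RNA was sequenced in 3 libraries of each of 6 groups. In each line, cells were non-transfected (NT), were given 5 nM of a negative control siRNA (NC), or were given 5 nM of an siRNA that targets Dicer1 (siDicer), and all were taken on day 4. Values are reads scaled to 20 M per library, and a single read made up 0.861 to 1.77 units at depths of 11.3 to 23.2 M reads.

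Dicer is the ribonuclease that cuts microRNA precursors into mature microRNAs. A mature microRNA guides an Argonaute protein to transcripts that pair with its seed, mostly in their 3′ untranslated region (3′UTR), and such pairing lowers the stability and translation of the transcript. In the thyroid, Dicer is needed for follicular cells to keep their specialised functions, and DICER1 is mutated in some thyroid tumours.

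DICER1, the targeted gene, was lower in every siDicer library than in every control library of its line. In TPC1 it ranged from 1397 to 1582 in NT, from 1901 to 2492 in NC and from 246 to 395 in siDicer. In D11 it ranged from 655 to 1157 in NT, from 1407 to 1536 in NC and from 277 to 451 in siDicer. DICER1 was thus higher in NC than in NT without overlap in both lines, a log2 difference of 0.58 (SE 0.21, limma adjusted p = 0.237) in TPC1 and 0.71 (SE 0.21, limma adjusted p = 0.106) in D11, which did not pass the test. For 12 of the 18 samples the title gives another condition than the description does. The groups here follow the descriptions, and so does the DICER1 level.

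The thyroid label was checked against 11 follicular cell markers. PAX8, a transcription factor of thyroid follicular cells, was at 7361 to 14886 over the 18 libraries, FOXE1 at 61 to 214 and TG, which encodes thyroglobulin, at 32 to 124. NKX2-1 was at 0 in all 18 libraries, and TSHR and SLC5A5 reached at most 2. Markers of cell types in which some of the 7 genes are well known were low for C and neuroendocrine cells. The hepatocyte and neuron lists each held expressed genes, such as SERPINA1 (141 to 365) and TUBB3 (975 to 2274). Of 10 C cell and neuroendocrine markers, CALCA, INSM1 and GRP were at 0 in all libraries. SCG2 reached at most 25 and CHGB at most 14. SCG2 was called higher in siDicer than in NT in TPC1 (limma adjusted p = 0.0129). CHGB was called higher in siDicer than in NT in D11 (limma adjusted p = 0.0156). Neither was called against NT in the other line, or against NC in either line. The summed value of the list was 12 to 30 in the control libraries and 38 to 47 in siDicer. Of 10 hepatocyte markers, ALB reached 3 and HNF4A 2, and the sum, carried by SERPINA1 and FGB, was 168 to 246 in NT, 317 to 402 in NC and 301 to 428 in siDicer in TPC1. The same sum in D11 was 149 to 194, 233 to 380 and 161 to 365. FGB was called higher in siDicer than in NT in TPC1 (2.35, limma adjusted p = 0.00467) and in D11 (3.01, 0.000486), and not against NC. In NT, FGB was lower in D11 than in TPC1 (-3.62, limma adjusted p = 0.00112). The 8 neuron markers, led by TUBB3, summed to 1126 to 2351 in control and 1423 to 2056 in siDicer libraries. The 8 fibroblast markers, with DCN at 0, summed to 232 to 322 in control and 409 to 824 in siDicer libraries of TPC1, and to 88 to 178 and 186 to 285 in D11, so that siDicer lay above the controls in both lines. The part of other cell types in the results was not tested, and in bulk RNA more cells of a type and more RNA per cell cannot be told apart.

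**Figure D1:**
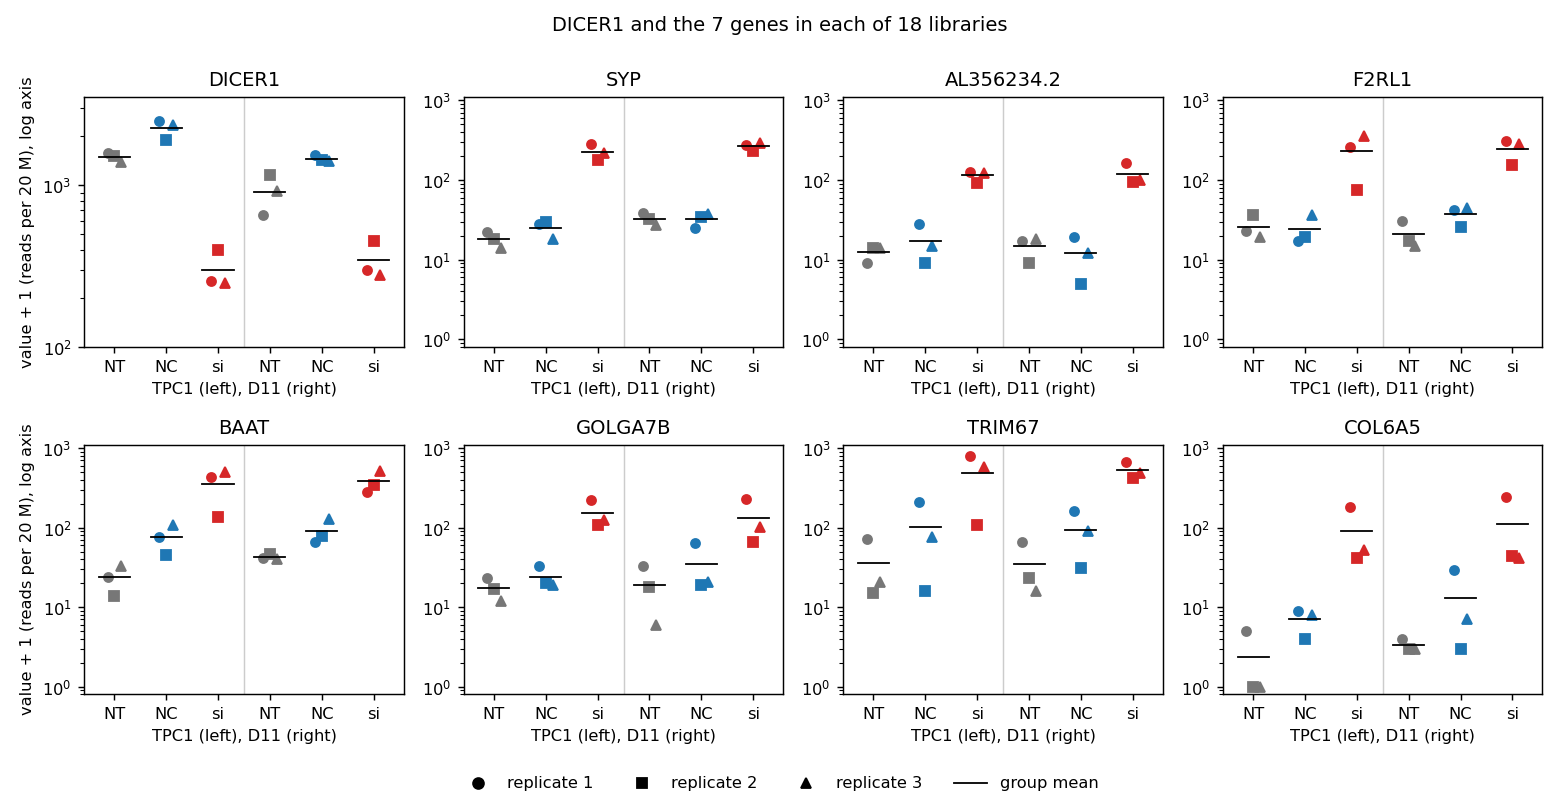
Value + 1 (reads per 20 M, log axis) of DICER1 and the 7 genes in each of the 18 libraries, by line and condition, with the replicate number as the symbol and the group mean as a bar. For each of the 7 genes every siDicer library lies above every control library of its line (for DICER1 below), except for TRIM67 in TPC1, where siDicer replicate 2 (106) lies below NC replicate 1 (210).

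The first comparison set siDicer against NT and NC in each line. All 7 genes had higher values in every siDicer library than in every NT library of the same line. This held against NC for 6 of 7 genes in TPC1, with TRIM67 as the exception, and for 7 of 7 in D11. Among all 19181 genes tested, the siDicer libraries lay wholly above NT for 13.5% in TPC1 and 19.7% in D11, and wholly above NC for 13.8% and 14.6%. These shares are given as background, because the same contrast chose the 7 genes.

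SYP encodes synaptophysin, a membrane protein of synaptic vesicles that also marks neuroendocrine cells. In TPC1, SYP was at 21, 17 and 13 in NT replicates 1 to 3, at 27, 29 and 17 in NC, and at 279, 179 and 220 in siDicer. In D11, SYP was at 38, 31 and 26 in NT, at 24, 33 and 37 in NC, and at 274, 233 and 292 in siDicer. All 6 siDicer libraries lay between 179 and 292, and no control library passed 38. The siDicer mean was 226 ± 50.3 (SD, n = 3) in TPC1, 13.3 times the NT mean and 9.29 times the NC mean. In D11 it was 266 ± 30.2 (SD, n = 3), 8.41 times NT and 8.5 times NC. On the log2(value + 1) scale, which understates the change of low genes, the TPC1 differences were 3.66 (SE 0.25) from NT and 3.17 (SE 0.25) from NC. In D11 they were 3.04 and 3.06 (SE 0.25 each).

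SYP (ENSG00000102003) is a minus-strand gene of chromosome X, spanning 49187815 to 49200218 (GRCh38, GENCODE 44). A long non-coding RNA gene on the opposite strand, SYP-AS1 (49198966 to 49202454), overlaps its 5′ end. SYP-AS1 had at most 10 units in any control library and 21 to 28 in the siDicer libraries, without overlap in either line. It was called higher in all 4 siDicer comparisons, with log2 differences of 3.86 (limma adjusted p = 0.00424) and 2.91 (0.029) from NT and NC in TPC1, and of 3.58 (0.00411) and 3.29 (0.0135) in D11. Against NC the call was lost without any 1 of 5 libraries in TPC1, NC replicate 1, 2 or 3 or siDicer replicate 1 or 3, and without NC replicate 2 or siDicer replicate 3 in D11 (limma adjusted p = 0.0527 to 0.103). The summed SYP-AS1 values were 10.6% of those of SYP in TPC1 siDicer and 9.64% in D11 siDicer, against 7.45% to 10.5% in the control groups. Most SYP-AS1 control values were at or near the floor of 3 reads (2.58 to 5.32 units by library), so its fitted changes depend on the added 1, and with 0.1 added both calls against NC were lost (limma adjusted p = 0.235 in TPC1 and 0.0881 in D11). Whether the counting used strand is not stated, so SYP and SYP-AS1 reads cannot be told apart. SYP-AS1 also passed the filter on low values through its siDicer libraries, so its calls are given as a description. Neither PRICKLE3, 1.29 kb away, nor CCDC22 was called in any of the 4 comparisons.

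The SYP promoter window from RefSeq (GRCh38.p14, minus strand, around the transcription start) is shown because SYP-AS1 runs across it. Capitals mark GGGCGG on either strand, the core of the GC box, of which it holds 4.
SYP promoter, chrX:49200144-49200443 (minus strand): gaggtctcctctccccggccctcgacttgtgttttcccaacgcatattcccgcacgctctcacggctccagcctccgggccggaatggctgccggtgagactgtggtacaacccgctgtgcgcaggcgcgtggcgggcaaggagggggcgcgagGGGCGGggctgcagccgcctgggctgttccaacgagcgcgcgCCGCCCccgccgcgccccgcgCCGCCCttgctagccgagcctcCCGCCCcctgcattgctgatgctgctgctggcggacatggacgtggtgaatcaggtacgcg
Its GC content was 71.3%, against a median of 58.7% over 35116 promoters of the same length, and 45% of these hold a GGGCGG. It holds no TATA box letters (TATAAA on either strand), which 11.5% of promoters hold. The 3′UTR of the longest SYP transcript (1472 bases) held 1 match to bases 2 to 8 of the 12 microRNAs searched. Capitals mark the seed in the microRNA and the paired bases in the transcript.
hsa-miR-30a-5p: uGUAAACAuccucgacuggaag
SYP site, chrX:49189012-49189033 (minus strand): ccttggcccctctcTGTTTACc
A match to this seed stood in the 3′UTR of 18.6% of 13309 tested genes. MicroRNAs were not measured in these libraries, and a match is a description, not a site in use.

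Of 30 tested genes of synaptic vesicles and neuroendocrine secretion, 3 were called higher and 1 lower in siDicer than in NT in TPC1, and 3 and 0 than in NC. In D11 the counts were 3 and 2 against NT and 3 and 0 against NC. They were 4 and 2, 4 and 1, 2 and 2, and 4 and 0 without siDicer replicate 2 of the line. Over all genes tested, 5.16% were called higher and 5.05% lower against NT in TPC1, 3.07% and 3.62% against NC in TPC1, 8.09% and 8.42% against NT in D11, and 3.17% and 4.6% against NC in D11. The list medians were -0.042, 0.072, -0.021 and 0.095, beside medians of -0.045, -0.04, -0.034 and -0.053 over all genes. BSN, a scaffold protein of the presynaptic active zone, rose in all 4 comparisons. Its log2 differences were 2.23 (limma adjusted p = 0.000872) and 2.13 (0.00169) in TPC1, and 2.66 (0.000143) and 1.81 (0.00456) in D11, from NT and NC. SNAP25, a SNARE protein of vesicle fusion, also rose in all 4, by 1.62 and 1.84 in TPC1 and by 1.42 and 2.02 in D11 (limma adjusted p = 0.00366 to 0.0152). Against NT its call was lost without NT replicate 1 in TPC1 (1.18, limma adjusted p = 0.0638), and without NT replicate 1 (1.16, 0.0773) or siDicer replicate 3 (1.34, 0.0553) in D11. The SYP paralog SYPL1 was called only against NC, with differences of 1.04 in TPC1 and 1.10 in D11, against 0.46 from NT in both. NC itself was below NT for SYPL1, at -0.58 in TPC1, just under the minimum fold, and -0.64 (limma adjusted p = 0.0166) in D11, the latter call lost without D11 NT replicate 1 or 3 or NC replicate 2 (0.0548 to 0.0738). SYNGR1 and SYNGR2, vesicle proteins related to SYP, were not called, with differences of 0.17 to 0.31 and -0.50 to -0.11. UCHL1, a deubiquitinase of neurons, fell against NT in TPC1 (-0.59) and D11 (-0.69), and its values against NC were -0.51 and -0.50. In TPC1 its fold was under the minimum without NT replicate 1 or siDicer replicate 2 or 3 (-0.54 to -0.55), and in D11 without NT replicate 1 (-0.54) or siDicer replicate 3 (-0.58).

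F2RL1 encodes PAR2, a G protein-coupled receptor that trypsin-like proteases activate by cutting its N terminus. In TPC1, F2RL1 was at 22, 35 and 18 in NT, at 16, 18 and 35 in NC, and at 262, 75 and 357 in siDicer. In D11, F2RL1 was at 30, 16 and 14 in NT, at 41, 25 and 44 in NC, and at 307, 152 and 280 in siDicer. Replicate 2 was the lowest siDicer library in both lines, and still lay above all control libraries of its line. The siDicer mean was 231 ± 143 (SD, n = 3) in TPC1, 9.25 times NT and 10.1 times NC, and 246 ± 82.8 (SD, n = 3) in D11, 12.3 and 6.72 times. On the log2 scale the differences from NT and NC were 2.94 and 3.09 in TPC1 and 3.57 and 2.69 in D11 (SE 0.48 each). Without siDicer replicate 2 the TPC1 differences were 3.61 and 3.76.

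F2RL1 (ENSG00000164251) lies on the plus strand of chromosome 5 from 76818933 to 76835315. Its nearest tested neighbour, 83.2 kb away, is F2R, which encodes the thrombin receptor PAR1. F2R was called higher in all 4 siDicer comparisons, by 0.63 and 0.61 in TPC1 and 0.82 and 0.81 in D11 (SE 0.12, limma adjusted p = 0.000178 to 0.00379). The TPC1 calls fell under the minimum fold without siDicer replicate 2 (0.55 and 0.53), without NT replicate 1 (0.56) or without NC replicate 1 (0.54). The mean of F2R in siDicer was 927 in TPC1 and 1041 in D11, beside 590 to 608 in the 4 control groups. The TPC1 siDicer replicate with the least F2RL1, replicate 2, had the most F2R (1035).

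The 3′UTR of F2RL1 (1514 bases) held matches to 3 of the 12 seeds. Of these, 2 are shown as examples, with the paired bases in capitals.
hsa-miR-16-5p: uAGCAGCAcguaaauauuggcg
F2RL1 site, chr5:76834771-76834792 (plus strand): accattgttctgaaTGCTGCTt
hsa-miR-26a-5p: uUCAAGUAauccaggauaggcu
F2RL1 site, chr5:76835194-76835215 (plus strand): acatatttaagagaTACTTGAt
Among the 13309 genes these seeds match in 25.8% and 14.2%. The F2RL1 promoter was GC-rich (69%) and held 3 GGGCGG.

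Of 26 tested receptors, activating proteases, inhibitors and G proteins of the PAR pathway, 7 were called higher and 0 lower against NT in TPC1, and 2 and 0 against NC. In D11 the counts were 6 and 0 against NT and 3 and 0 against NC. Without siDicer replicate 2 of the line they were 5 and 0, 2 and 0, 5 and 2, and 3 and 0. The list medians were 0.27, 0.18, 0.3 and 0.15, beside -0.045, -0.04, -0.034 and -0.053 over all genes. Of all genes, 5.16%, 3.07%, 8.09% and 3.17% were called higher and 5.05%, 3.62%, 8.42% and 4.6% lower. F2RL2, the receptor PAR3, rose against NT by 0.96 (SE 0.24, limma adjusted p = 0.0121) in TPC1 and by 1.31 (SE 0.24, limma adjusted p = 0.000921) in D11. Against NC, F2RL2 differed by 0.56 in TPC1, which was not called, and by 0.85 (limma adjusted p = 0.0275) in D11. The call against NT in TPC1 was lost without siDicer replicate 1 (0.75, limma adjusted p = 0.0835), and that against NC in D11 without any 1 of NC replicates 2 and 3 and siDicer replicates 1 and 3 (limma adjusted p = 0.0527 to 0.135). F2RL3, the receptor PAR4, had group means of 0 to 0.667 and was not tested. ST14, which encodes matriptase, a membrane protease that can activate PAR2, rose by 1.35 and 1.23 in TPC1 and by 1.70 and 1.21 in D11 (SE 0.34, limma adjusted p = 0.0015 to 0.0251). ST14 was low, with means of 13.7 to 19.7 in control groups and 47 and 47.7 in siDicer, and only its call against NT in D11 was kept whichever library was left out. The calls were lost without 2, 4 and 3 single libraries in the others: NT replicate 1 or siDicer replicate 1 against NT in TPC1, NC or siDicer replicate 1 or 3 against NC in TPC1, and NC replicate 1 or siDicer replicate 1 or 3 against NC in D11 (limma adjusted p = 0.0553 to 0.114). GNA12, a G protein subunit, differed by 0.27 to 0.32, under the minimum fold of 1.5.

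BAAT encodes the liver enzyme that joins bile acids to glycine or taurine. In TPC1, BAAT was at 23, 13 and 32 in NT, at 75, 44 and 107 in NC, and at 430, 136 and 494 in siDicer. In D11, BAAT was at 41, 46 and 39 in NT, at 64, 78 and 127 in NC, and at 277, 346 and 519 in siDicer. The 3 conditions were in the same order in both lines, NT below NC below siDicer, and no 2 of them overlapped. The siDicer mean was 353 ± 191 (SD, n = 3) in TPC1, 15.6 times NT but 4.69 times NC. In D11 it was 381 ± 125 (SD, n = 3), 9.06 times NT and 4.25 times NC. The log2 differences were 3.79 and 2.10 in TPC1 and 3.10 and 2.08 in D11 (SE 0.44 each). Without siDicer replicate 2 the TPC1 differences were 4.37 and 2.69.

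BAAT (ENSG00000136881) is a minus-strand gene of chromosome 9, spanning 101354182 to 101385400. AL359893.1, an annotated processed pseudogene on the opposite strand (101358932 to 101361242), overlaps the far part of the 3′UTR of its longest transcript. In TPC1, AL359893.1 was at 8, 4 and 9 in NT, at 20, 4 and 21 in NC, and at 87, 19 and 86 in siDicer. In D11 it was at 9, 13 and 5, at 11, 25 and 17, and at 48, 49 and 72. It was called higher against NT in TPC1 (2.80, limma adjusted p = 0.00402) and in D11 (2.58, 0.00409) and against NC in TPC1 (2.02, 0.0348), and not against NC in D11 (1.66, 0.0718). The call against NC in TPC1 was lost without NC replicate 2 (1.32, limma adjusted p = 0.162) or siDicer replicate 1 (1.66, 0.161) or 3 (1.67, 0.164). Its summed values were 14.8% to 30.9% of those of BAAT in the 6 groups, and with an unknown strand setting its reads and those of BAAT cannot be told apart.

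The 3′UTR of BAAT (2011 bases) held 2 seed matches, both within the stretch that AL359893.1 covers on the other strand.
hsa-miR-31-5p: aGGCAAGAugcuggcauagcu
BAAT site, chr9:101360573-101360594 (minus strand): atcctcacactcttTCTTGCCt
hsa-miR-146b-5p: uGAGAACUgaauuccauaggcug
BAAT site, chr9:101360635-101360656 (minus strand): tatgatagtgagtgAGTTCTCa
These seeds match in 15% and 13.2% of genes, and miR-146b is known for its high level in papillary thyroid carcinoma. BAAT has 2 promoter windows in RefSeq, with GC contents of 36.7% and 36.3%. The second is shown as a contrast to the GC-rich window of SYP, with TATAAA and CCAAT (on either strand) in capitals.
BAAT promoter, chr9:101383515-101383814 (minus strand): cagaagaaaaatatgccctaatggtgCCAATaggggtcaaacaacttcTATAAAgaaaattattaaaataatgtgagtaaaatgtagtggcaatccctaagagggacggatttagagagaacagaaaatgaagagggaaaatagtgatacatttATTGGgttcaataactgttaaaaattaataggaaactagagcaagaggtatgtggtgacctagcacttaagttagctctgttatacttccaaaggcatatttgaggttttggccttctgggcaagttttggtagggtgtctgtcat
It holds 1 TATAAA and 2 CCAAT, and 34.6% of promoters hold a CCAAT.

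Of 23 tested genes of bile acid synthesis, conjugation and transport, 1 was called higher and 0 lower against NT in TPC1, 1 and 1 against NC in TPC1, 5 and 1 against NT in D11, and 0 and 1 against NC in D11. They were 1 and 1, 0 and 1, 5 and 0, and 0 and 1 without siDicer replicate 2 of the line. The list medians were -0.012, 0.013, 0.041 and -0.1, beside -0.045, -0.04, -0.034 and -0.053 over all genes. Of all genes, 5.16%, 3.07%, 8.09% and 3.17% were called higher and 5.05%, 3.62%, 8.42% and 4.6% lower. SLC27A5, which activates bile acids for the BAAT reaction, was not called, with values of -0.56 to -0.16. EHHADH, a peroxisomal beta-oxidation enzyme, fell against NC in TPC1 (-0.82, limma adjusted p = 0.00177) and in D11 (-0.61, 0.0105), and its values against NT were -0.42 and -0.28. The D11 call was lost without NC replicate 3 (-0.55) or siDicer replicate 1 (-0.48). ACOT8, a peroxisomal thioesterase, and ACOT2, its mitochondrial relative, were not called in any of the 4 comparisons. ACOT6 was near the floor, with means of 8.67 and 10.3 in siDicer and 1 to 2.67 in control groups.

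GOLGA7B encodes an accessory protein of the palmitoyltransferase ZDHHC5. In TPC1, GOLGA7B was at 22, 16 and 11 in NT, at 32, 19 and 18 in NC, and at 223, 108 and 122 in siDicer. In D11, GOLGA7B was at 32, 17 and 5 in NT, at 63, 18 and 20 in NC, and at 225, 65 and 100 in siDicer. Replicate 1 was the highest library in all 6 groups, and in D11 the lowest siDicer library (65) was 2 units above the highest NC library (63). The siDicer mean was 151 ± 62.7 (SD, n = 3) in TPC1, 9.24 times NT and 6.57 times NC. In D11 it was 130 ± 84.1 (SD, n = 3), 7.22 and 3.86 times. The log2 differences were 3.11 and 2.63 in TPC1 and 2.91 and 1.96 in D11 (SE 0.58 each), and the last was 1.47 without siDicer replicate 1 and 2.52 without NC replicate 1.

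GOLGA7B (ENSG00000155265) lies on the plus strand of chromosome 10 from 97849843 to 97871580. CRTAC1, which overlaps it on the opposite strand, had 0 to 20 units and was not tested, and the neighbours ZFYVE27 and R3HCC1L were not called. R3HCC1L was under the minimum fold, at 0.55 and 0.49 in TPC1 and 0.52 and 0.52 in D11 (limma adjusted p = 0.00278 to 0.0107). Its 3′UTR of 5878 bases held 1 match to the 12 seeds, 0.17 per kb, while the median over all genes was 2 matches.
hsa-miR-27a-3p: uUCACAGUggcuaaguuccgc
GOLGA7B site, chr10:97871276-97871297 (plus strand): ggaggaagtgggaaACTGTGAa
Of 31 tested protein acyltransferases and accessory proteins, 0 were called higher and 3 lower against NT in TPC1, 0 and 1 against NC in TPC1, 1 and 2 against NT in D11, and 0 and 2 against NC in D11, the last 0 and 1 without siDicer replicate 2. The list medians were 0.0015, -0.065, -0.07 and -0.081, beside -0.045, -0.04, -0.034 and -0.053 over all genes. Of all genes, 5.16%, 3.07%, 8.09% and 3.17% were called higher and 5.05%, 3.62%, 8.42% and 4.6% lower. ZDHHC5 itself was not called, with differences of 0.16 and 0.27 in TPC1 and 0.16 and 0.25 in D11. GOLGA7, the paralog of GOLGA7B that works with ZDHHC9, was called higher only against NT in D11 (0.65, SE 0.08, limma adjusted p = 7.04e-05), beside 0.57 against NT in TPC1, just under the minimum fold, and 0.37 and 0.42 against NC. ZDHHC20, another palmitoyltransferase, fell in all 4 comparisons, with differences from -1.09 against NC in TPC1 to -0.78 against NT in D11 (SE 0.16, limma adjusted p = 0.000362 to 0.0019), and kept each call whichever library was left out.

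TRIM67 encodes a ubiquitin ligase of the tripartite motif family that acts in neurons with the netrin receptor DCC. In TPC1, TRIM67 was at 70, 14 and 20 in NT, at 210, 15 and 75 in NC, and at 786, 106 and 577 in siDicer. In D11, TRIM67 was at 65, 22 and 15 in NT, at 160, 30 and 89 in NC, and at 659, 419 and 486 in siDicer. TRIM67 was uneven between replicates, with replicate 1 highest in all 6 groups and replicate 2 lowest in 5 of 6. Its TPC1 siDicer and NC libraries overlapped, since siDicer replicate 2 (106) lay below NC replicate 1 (210). The siDicer mean was 490 ± 348 (SD, n = 3) in TPC1, 14.1 times NT and 4.9 times NC. In D11 it was 521 ± 124 (SD, n = 3), 15.3 and 5.61 times. The log2 differences were 3.70 and 2.52 in TPC1 and 4.15 and 2.74 in D11 (SE 0.88 each). Against NC in TPC1 the difference was 1.53 without NC replicate 2 and 3.41 without siDicer replicate 2.

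TRIM67 (ENSG00000119283) lies on the plus strand of chromosome 1 from 231162058 to 231221565. Of the neighbours, C1orf131, 2.2 kb away, fell against NC in TPC1 (-0.81) and against both controls in D11 (-0.61 and -0.67), and was at -0.48 against NT in TPC1. The D11 call against NT was lost without NT replicate 1 (-0.46, limma adjusted p = 0.0508) or siDicer replicate 3 (-0.57, under the minimum fold). FAM89A, 122 kb away, rose against NC (0.68 in TPC1, 0.96 in D11) and was at 0.50 and 0.47 against NT. The 3′UTR of TRIM67 was the longest of the 7 (6125 bases) and held 7 matches to 5 of the 12 seeds, 1.14 per kb beside 1.2 per kb over all genes. The 2 let-7 matches are shown as an example, and miR-31-5p also had 2.
hsa-let-7a-5p: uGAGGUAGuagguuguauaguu
TRIM67 site, chr1:231217125-231217146 (plus strand): caggcccgacaatcCTACCTCa
TRIM67 site, chr1:231220037-231220058 (plus strand): ctagtcatactaacCTACCTCc
The let-7 seed matches in 11.7% of genes.

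Of 29 tested TRIM67 relatives and netrin signalling genes, 5 were called higher and 1 lower against NT in TPC1, 5 and 0 against NC in TPC1, 6 and 2 against NT in D11, and 4 and 1 against NC in D11. Without siDicer replicate 2 of the line these were 4 and 2, 3 and 1, 5 and 2, and 3 and 1. The list medians were 0.15, 0.12, 0.28 and 0.089, beside -0.045, -0.04, -0.034 and -0.053 over all genes. Of all genes, 5.16%, 3.07%, 8.09% and 3.17% were called higher and 5.05%, 3.62%, 8.42% and 4.6% lower. TRIM9, the closest relative of TRIM67, was called higher in all 4 comparisons, by 0.89 and 0.92 in TPC1 and by 1.59 and 1.03 in D11 (SE 0.29, limma adjusted p = 0.000868 to 0.0489). The TRIM9 calls in TPC1 were fragile, lost without any 1 of 9 libraries against NT and of 13 against NC (limma adjusted p = 0.0508 to 0.19), and that against NC in D11 without NC replicate 1 or 3 or siDicer replicate 1 or 2 (0.0681 to 0.12). DCC was at 0 in all groups. SLIT3, a secreted guidance ligand of ROBO receptors, rose by 1.79 and 1.05 in TPC1 and by 1.67 and 0.82 in D11 (SE 0.19, limma adjusted p = 2.39e-05 to 0.00832) and kept each call whichever library was left out. UNC5A, a netrin receptor, rose by 0.64 and 0.92 in TPC1 and by 0.80 and 0.88 in D11 (SE 0.16, limma adjusted p = 0.0015 to 0.0119), a call lost against NT in TPC1 without NT replicate 3 (0.52) or siDicer replicate 1 (0.57).

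COL6A5 encodes a chain of collagen VI, which forms beaded filaments in the extracellular matrix. In TPC1, COL6A5 was at 4, 0 and 0 in NT, at 8, 3 and 7 in NC, and at 180, 41 and 51 in siDicer. In D11, COL6A5 was at 3, 2 and 2 in NT, at 28, 2 and 6 in NC, and at 244, 43 and 40 in siDicer. Replicate 1 stood far above the other siDicer libraries in both lines and was the highest in all 6 groups. Only 1 of the 12 control libraries reached 10 units, so COL6A5 passed the filter on low values (at least 10 in 3 libraries) through its siDicer libraries. By contrast, AL356234.2 reached 10 in 8 of 12 control libraries, GOLGA7B in 11 and the other 4 genes in all 12. The NT values were at or near the floor of 3 reads, so no fold against NT is given, and the fitted log2 differences of 5.42 in TPC1 and 4.53 in D11 (SE 0.84 each) depend on the added 1. Means in siDicer were 90.7 ± 77.5 (SD, n = 3) in TPC1 and 109 ± 117 (SD, n = 3) in D11, beside NC means of 6 and 12. The NC values were near the floor too, apart from replicate 1 in D11 (28), so no fold is given here either. The log2 differences from NC were 3.47 and 3.17, and without siDicer replicate 1 they were 2.82 and 2.33. Without NC replicate 1 the D11 difference was 4.06.

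COL6A5 (ENSG00000172752) lies on the plus strand of chromosome 3 from 130345516 to 130484846, and its tested neighbours PIK3R4 and ALG1L2 were not called. Its 3′UTR of 786 bases held 1 seed match, of a seed found in 9.93% of genes.
hsa-miR-221-3p: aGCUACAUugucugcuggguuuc
COL6A5 site, chr3:130484786-130484807 (plus strand): tcttgggaattacaATGTAGCa
Of 36 tested collagen VI chains, modifiers and receptors, 8 were called higher and 3 lower against NT in TPC1, 5 and 1 against NC in TPC1, 10 and 3 against NT in D11, and 5 and 2 against NC in D11. Without siDicer replicate 2 of the line these were 9 and 4, 6 and 2, 9 and 2, and 5 and 3. The list medians were 0.15, -0.0071, 0.19 and -0.028, beside -0.045, -0.04, -0.034 and -0.053 over all genes. Of all genes, 5.16%, 3.07%, 8.09% and 3.17% were called higher and 5.05%, 3.62%, 8.42% and 4.6% lower. Of the fibroblast markers, LUM, which this list also holds, was called higher against NT by 2.05 (limma adjusted p = 0.0327) in TPC1 and 2.36 (0.0103) in D11. PDGFRB was called by 2.08 (0.0123) and 1.97 (0.0106). Against NC, LUM was called higher in D11 (2.89, 0.00613) and THY1 lower in TPC1 (-1.04, 0.0152). LUM was far lower in D11 than in TPC1, by -5.57 in NT (limma adjusted p = 0.00013). COL1A2 and COL3A1 reached at most 2 in any library, and the part of such cells was not tested. The 2 main chains with which COL6A3 assembles, COL6A1 and COL6A2, rose in all 4 comparisons and kept each call whichever library was left out. COL6A1 rose by 0.92 and 0.96 in TPC1 and by 0.96 and 0.88 in D11 (SE 0.19), from means of 7221 to 9176 in the control groups to 17108 in TPC1 and 13980 in D11 siDicer. COL6A2 rose by 0.88 and 1.01 in TPC1 and by 0.85 and 0.90 in D11 (SE 0.18, limma adjusted p = 0.00217 to 0.00416). COL6A3 was low and did not move with them, being called only against NC in D11, where it fell (-1.21, limma adjusted p = 0.00218) and where NC itself was above NT by 1.61 (limma adjusted p = 0.00134). BMP1, a protease that trims procollagens, rose by 0.91 and 0.71 in TPC1 and by 0.85 and 0.62 in D11, the last under the minimum fold without NC replicate 1 (0.51) or siDicer replicate 3 (0.54). PCOLCE2, an enhancer of that protease, fell in all 4 comparisons, with differences of -1.12 and -1.56 in TPC1 and of -1.42 and -1.65 in D11 (SE 0.22).

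AL356234.2 (ENSG00000283265) is a long non-coding RNA gene with no function known here, on the plus strand of chromosome 6 from 137693068 to 137700415. In TPC1, AL356234.2 was at 8, 13 and 13 in NT, at 27, 8 and 14 in NC, and at 126, 91 and 123 in siDicer. In D11, AL356234.2 was at 16, 8 and 17 in NT, at 18, 4 and 11 in NC, and at 163, 94 and 100 in siDicer. All 6 siDicer libraries lay between 91 and 163, and no control library passed 27. The siDicer mean was 113 ± 19.4 (SD, n = 3) in TPC1, 10 times NT and 6.94 times NC. In D11 it was 119 ± 38.2 (SD, n = 3), 8.71 and 10.8 times. The log2 differences were 3.23 and 2.86 in TPC1 and 3.05 and 3.48 in D11 (SE 0.46 each). Its transcript of 1160 bases held 0 matches to the 12 seeds.

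The processed pseudogene AL356234.1, on the opposite strand 5.01 kb beyond AL356234.2 (137705423 to 137707201), had a like pattern. AL356234.1 was at 0 to 5 in the 12 control libraries, at 41, 25 and 37 in TPC1 siDicer, and at 41, 27 and 39 in D11 siDicer. It thus passed the filter on low values through siDicer, and its calls are given as a description. It was called higher in all 4 comparisons, by 4.06 (limma adjusted p = 0.000191) and 2.95 (0.00248) in TPC1 and by 3.45 (0.000319) and 3.87 (0.00027) in D11, whichever library was left out. Its control values were at or near the floor, so these sizes depend on the added 1, and with 0.1 added the call against NC in TPC1 was lost (limma adjusted p = 0.0845). Of the 14 nearest tested neighbours of the 7 genes, AL356234.1 included, 2, 3, 2 and 3 were called higher and 0, 1, 1 and 1 lower in the 4 comparisons. Of the 2 tested genes that overlap one, SYP-AS1 and AL359893.1, 2, 2, 2 and 1 were called higher. The shares called higher over all genes were 5.16%, 3.07%, 8.09% and 3.17%. Because AL356234.1 and SYP-AS1 passed the filter through siDicer, these counts are a description too.

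**Figure D2:**
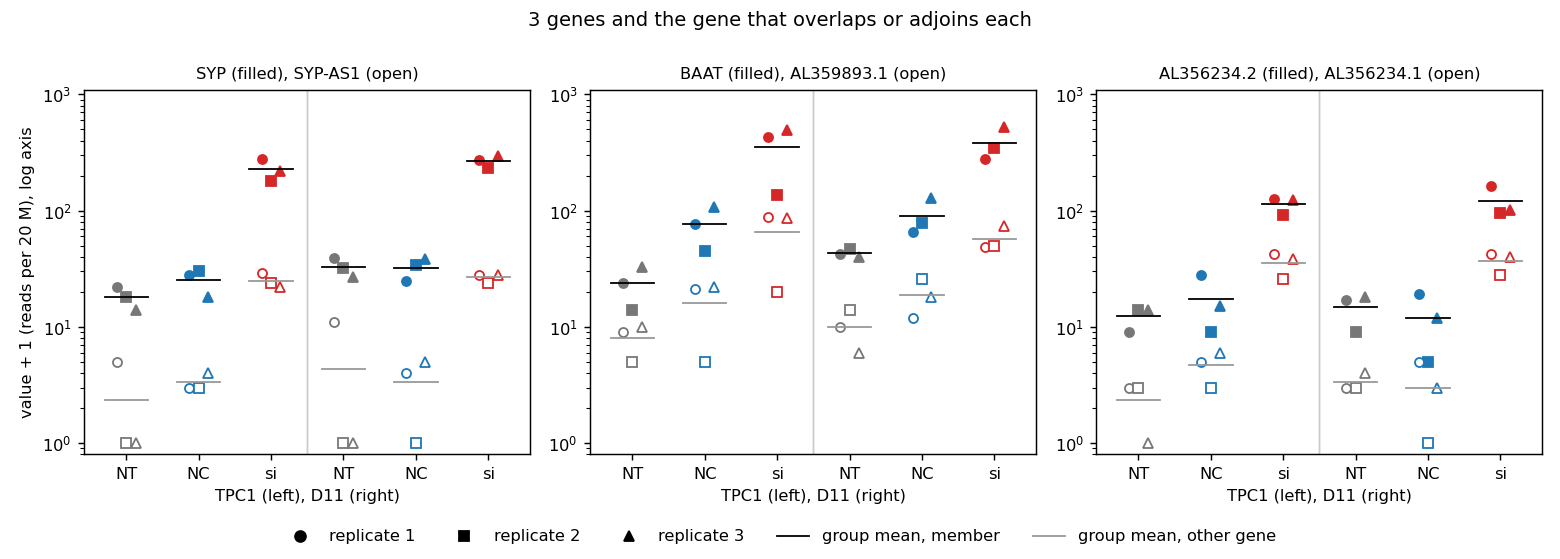
Value + 1 (reads per 20 M, log axis) of SYP, BAAT and AL356234.2 and of the gene on the opposite strand at or near each, in the 18 libraries by line and condition. SYP-AS1 and AL356234.1 lie at or below 10 units in every control library and at 21 or above in every siDicer library, while AL359893.1 overlaps between siDicer and NC in TPC1.

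**Figure D3:**
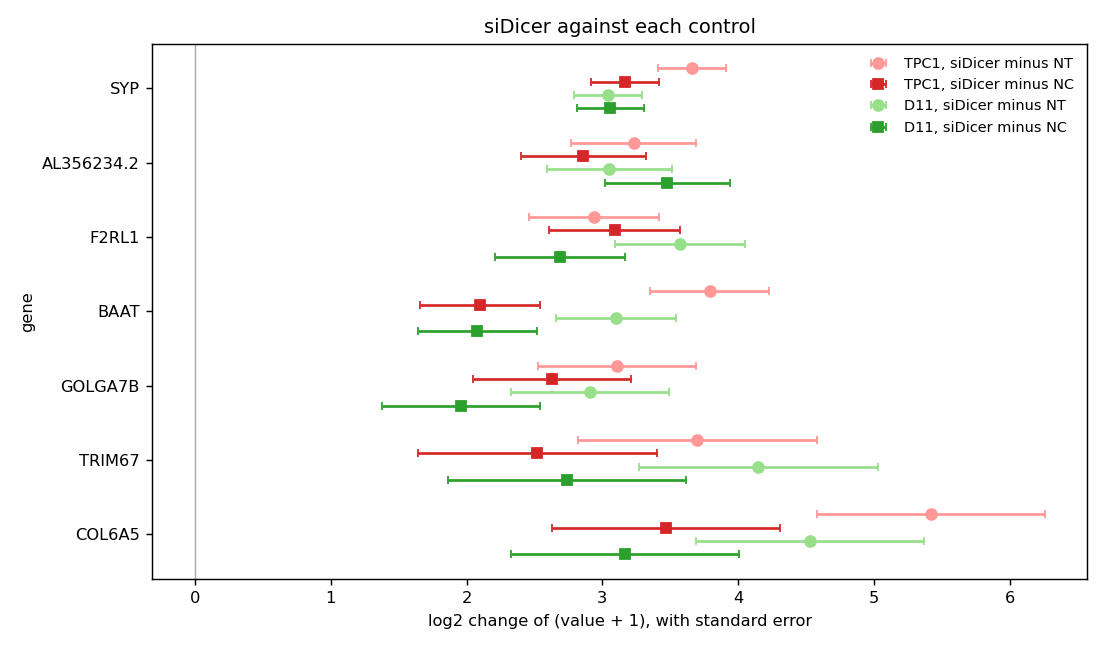
Log2(value + 1) difference of siDicer from NT and from NC in TPC1 and D11 for the 7 genes, as the fitted difference with its standard error. The differences run from 1.96 (GOLGA7B against NC in D11) to 5.42 (COL6A5 against NT in TPC1), and BAAT, TRIM67, GOLGA7B and COL6A5 lie lower against NC than against NT in both lines.

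Of the 6 genes with a fold against both controls, BAAT and TRIM67 differed most between the controls. Against NC in place of NT, the ratio of siDicer to control means fell for BAAT from 15.6 to 4.69 in TPC1 and from 9.06 to 4.25 in D11. The same ratio fell for TRIM67 from 14.1 to 4.9 and from 15.3 to 5.61. For SYP in D11 it stayed at 8.41 and 8.5. Among the genes whose mean reached 100 in either group compared, ordered by the fitted log2 difference, SYP was at place 1 and F2RL1 at place 2 against NC in TPC1, with BAAT at 15. In D11, AL356234.2 was at place 1 and SYP at place 3 against NC, with BAAT at 17 and GOLGA7B at 21. COL6A5 is not placed in TPC1, where its mean stayed under 100. The places are for 1 added to each value and can change with another pseudocount.

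The siDicer replicates differed among themselves in the same way for most of the 7 genes. DICER1 stood at 13.6%, 21.1% and 13.1% of the control mean of the line in TPC1 siDicer replicates 1 to 3, and at 25.1%, 38.1% and 23.4% in D11. Replicate 2 thus had the most DICER1 left in both lines. It was also the lowest siDicer library for 7 of 7 genes in TPC1 and for 5 of 7 in D11, and replicate 1 was the highest for 5 of 7 in each. This was not particular to these genes: of the other genes called higher against both NT and NC, replicate 2 was lowest for 72% of 350 in TPC1 and 54.3% of 446 in D11. The part of the remaining DICER1 in these differences was not tested. TRIM67, GOLGA7B and COL6A5 had replicate 1 highest in all 6 groups, controls included, as did 4.09% of all genes tested.

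**Figure D4:**
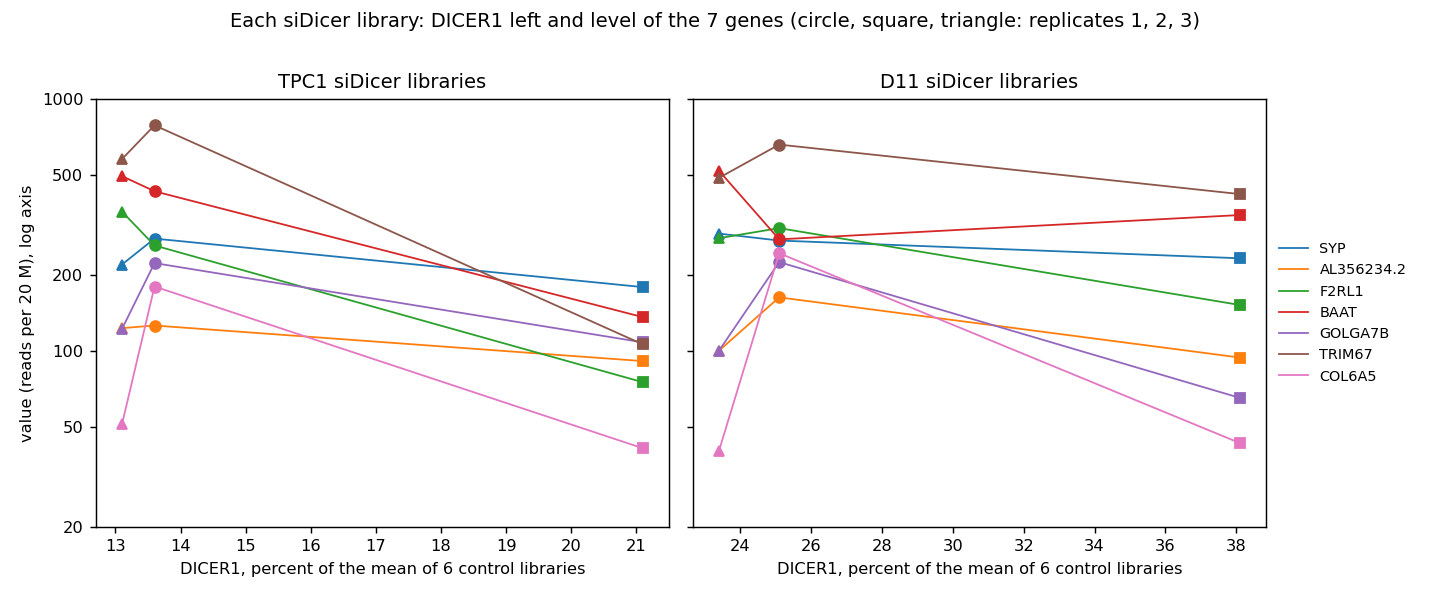
Value (reads per 20 M, log axis) of each of the 7 genes in the 3 siDicer libraries of each line against DICER1 as a percent of the mean of the line's 6 control libraries, with lines joining the points of one gene and a circle, square or triangle for replicates 1, 2 and 3. The square of replicate 2, at 21.1% in TPC1 and 38.1% in D11, is the lowest point of 7 of 7 genes in TPC1 and 5 of 7 in D11.

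The second comparison set NC against NT, to see whether transfection of a control siRNA moved the 7 genes. The rule asked for low values in NT and NC alike. A gene much raised by NC was thus less likely to be chosen, and a lack of calls here is limited by that choice. COL6A5 is left out of this test and the next, because its control values lie at or near the floor and it passed the filter through siDicer. Without a replicate block, none of the other 6 genes was called in either line by limma, beside 0.761% of all genes tested in TPC1 and 1.05% in D11, and limma-voom on recovered reads also called 0. An unadjusted p under 0.05 was reached by 1 of the 6 in each line, BAAT (12.1% of all genes in TPC1 and 15.8% in D11), and with voom by BAAT in TPC1 and by 0 in D11. BAAT was the 1 gene of the 6 whose NC libraries all lay above NT, in both lines, as did those of 8.02% and 10.5% of all genes. The BAAT mean in NC was 3.32 times NT in TPC1 and 2.13 times in D11. Its log2 difference was 1.69 (SE 0.44, limma adjusted p = 0.0786) in TPC1 and 1.02 (SE 0.44, limma adjusted p = 0.265) in D11. The summed hepatocyte markers lay higher in NC than in NT without overlap in both lines as well, and their part was not tested. In TPC1 the BAAT difference passed the threshold without NC replicate 2 (2.02, limma adjusted p = 0.048) or siDicer replicate 2 (1.69, 0.0183).

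In D11, samples with the same replicate number deviated together. A fit with the replicate as a block called BAAT (1.02, SE 0.21, limma adjusted p = 0.0104) and TRIM67 (1.40, SE 0.39, limma adjusted p = 0.0416) higher in NC than in NT, 2 of the 6 beside 1.97% of all genes. In TPC1, where 7 of 9 same-numbered pairs correlated over 0.1, the block called only BAAT of the 6 higher (1.69, SE 0.21, limma adjusted p = 0.000261), beside 1.69% of all genes. TRIM67 without the block differed by 1.17 (limma adjusted p = 0.665) in TPC1 and 1.40 (0.459) in D11. Its NC value was above the NT value of the same number in 3 of 3 pairs in each line, although the groups overlapped. SYP differed by 0.48 in TPC1 and -0.02 in D11, GOLGA7B by 0.47 and 0.95, AL356234.2 by 0.37 and -0.42, and F2RL1 by -0.15 and 0.88. A test of the difference between the lines in the effect of NC (interaction term) passed for none of the 6 (limma adjusted p = 0.999) and for 0 of the 19181 genes, of which 334 had an unadjusted p under 0.05.

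**Figure D5:**
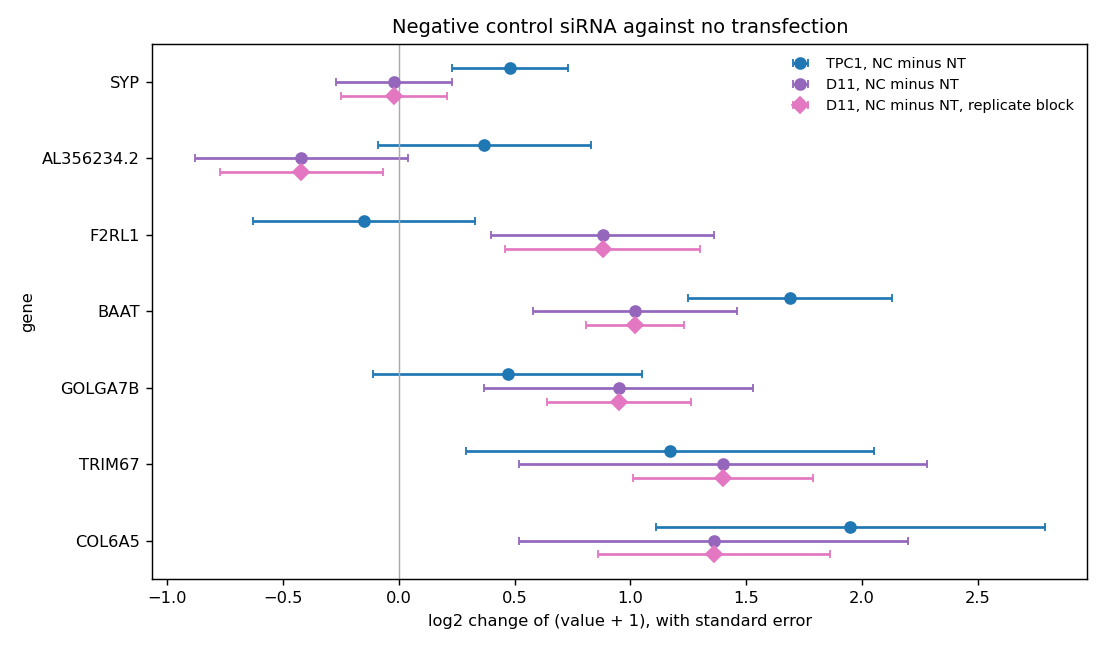
Log2(value + 1) difference of NC from NT for the 7 genes in TPC1, in D11, and in D11 with the replicate as a block, as the fitted difference with its standard error. BAAT lies above 0 in both lines (1.69 and 1.02), and SYP in D11 at -0.02.

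The third comparison set D11, which carries the Dicer1 (+/-) genotype, against TPC1 in the same condition. The log2 difference of DICER1 was -0.75 (limma adjusted p = 0.181) in NT and -0.62 (0.622) in NC, which did not pass the test. None of the 6 genes was called in NT, beside 0.443% of all genes, nor in NC, beside 0.401%, and voom called 0 in both. The rule asked for low control values, so a gene much higher in D11 controls was less likely to be chosen. The lack of calls here is limited by that choice as well. In NT, 2 of the 6 had an unadjusted p under 0.05 (11.2% of all genes), and 1, SYP, with voom. The 2 were SYP and BAAT, whose D11 libraries all lay above those of TPC1, as did those of 4.34% of all genes. SYP in NT was at 26 to 38 in D11 and 13 to 21 in TPC1, a difference of 0.87 (SE 0.25, limma adjusted p = 0.194). BAAT in NT was at 39 to 46 in D11 and 13 to 32 in TPC1, a difference of 0.94 (SE 0.44, limma adjusted p = 0.434). With the replicate as a block, the limma adjusted p in NT was 0.0643 for SYP and 0.113 for BAAT, and neither was called. In NC, 0 of the 6 had an unadjusted p under 0.05 (3.74% of all genes), also with voom, and the differences ran from -0.58 for AL356234.2 to 0.69 for F2RL1.

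Per kb of exon, the 7 genes could be ordered by level in siDicer. AL356234.2 was highest, at 97.7 units per kb in TPC1 and 103 in D11, followed by F2RL1 (79 and 84.1), BAAT (74.6 and 80.4), TRIM67 (52.2 and 55.5), SYP (32.4 and 38.2), GOLGA7B (22.1 and 19) and COL6A5 (9.46 and 11.4). The order was the same in both lines, but the siDicer libraries of neighbours such as F2RL1 and BAAT spread more widely than the gap between them. In NT the order began with AL356234.2 in TPC1 (9.77) and in D11 (11.8), and COL6A5 was last (0.139 and 0.244). Across the 18 libraries, the genes whose log2 values followed each most closely were ITPRIP for SYP (Pearson r = 0.95), RALA for AL356234.2 (0.966), SPNS1 for F2RL1 (0.966), ANKRD13B for BAAT (0.973), TMEM86A for GOLGA7B (0.95), PLPP3 for TRIM67 (0.975) and DGAT2 for COL6A5 (0.963). Among the 7 themselves, r ran from 0.786 (BAAT and GOLGA7B) to 0.931 (GOLGA7B and COL6A5). These correlations describe 18 libraries that share the siDicer contrast by which the genes were chosen, and carry no test.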

How the data were processed

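Messenger RNA of 18 samples, 3 in each of 6 groups, was sequenced by the authors as paired-end reads (TruSeq Stranded mRNA, NovaSeq). Reads were aligned with STAR 2.5.3a to GRCh38 and assigned to genes with HTSeq 0.9.1, per the study's methods and the submitters' processing notes, with Ensembl release 90. The deposited values are a score, reads per 20 M rounded up by the authors, and not raw counts. Whether the counting used strand is not given in the sources used here. Depth, recovered from the value steps, was 11.3 to 23.2 M reads (median 15.8), so 1 read was 0.861 to 1.77 units, and 99.77% to 99.99% of values in 16 libraries equalled, with no tolerance, a whole number of reads times that worth, rounded up.

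Because the values are not counts, log2(value + 1) was tested with limma 3.58.1 (lmFit and eBayes with a trend, R 4.3.3) over all 18 libraries and 6 groups, on the 19181 of 58302 genes with at least 10 units in at least 3 libraries. A gene was called at a Benjamini-Hochberg adjusted p under 0.05 over all genes and a fold of at least 1.5. The model was also run on simulated counts with 200 changed genes. The simulated libraries had no replicate pairing and the same spread setting for every gene, so that run does not cover these features of the data. The labels do not say that replicates are separate cultures, so p-values measure the spread between these samples only, which may be technical. Groups follow the descriptions, since titles of 12 samples name other conditions.

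Replicate numbers pair the D11 samples: the deviations of same-numbered samples from their group means correlated at 0.106 to 0.473 in 9 of 9 pairs of libraries. In TPC1 the same correlations ran from 0.0861 to 0.509, over 0.1 in 7 of 9 pairs. Between the lines, 22 of 27 same-numbered pairs correlated over 0.1, beside 4 of 54 pairs with different numbers. The 7 genes and the gene lists were chosen with earlier results of these data known. In each list, the genes named are its fixed partners and those with the smallest largest adjusted p over the 4 siDicer comparisons. Genes most alike were taken by Pearson r over 18 libraries. Positions are from GENCODE 44, and microRNAs and promoters from RefSeq (GRCh38.p14), which had no promoter for COL6A5 and AL356234.2. Alternatives were other scalings, filters, pseudocounts, groups in the fit, the block and leaving out each library, and voom on recovered reads was added after seeing the data. A few genes and sequences are not reported here.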

Additional observations from a re-analysis of the deposited data

How the results depend on the processing

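Numbers of genes called, in the order siDicer against NT and NC in TPC1, then in D11, NC against NT in TPC1 and D11, and D11 against TPC1 in NT and NC, were 1959, 1284, 3166, 1490, 146, 202, 85 and 77. With only the 2 groups compared in the fit, siDicer against NT in TPC1 gave 1074, NC against NT 20 in TPC1 and 63 in D11, and D11 against TPC1 47 in NT and 41 in NC. Without a minimum fold the siDicer comparisons gave 3318, 2293, 5344 and 2661. With NT and NC as one control, siDicer in D11 gave 2327 against the 1490 from NC alone. Leaving out each library gave 1072 to 2922, 700 to 1851, 2453 to 3495, 888 to 1645, 64 to 210, 63 to 438, 52 to 153 and 37 to 88, in the first order. With median ratio scaling, the share called higher among siDicer calls against NC in D11 moved from 40.8% to 50.8%.

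With the replicate as a block, NC against NT gave 572 in TPC1 and 565 in D11, and D11 against TPC1 gave 316 in NT and 139 in NC. In TPC1, 7 of 9 same-numbered pairs correlated over 0.1, beside 9 of 9 in D11. In each line, 7 of 9 samples correlated best with their own number in both other groups, so the lines differed little in pairing. In TPC1 the block called BAAT (1.69, limma adjusted p = 0.000261) higher in NC than in NT. COL6A5 is left out here too, because its control values lie at or near the floor and it passed the filter through siDicer. The block changed no call of the 7 genes between D11 and TPC1.

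Signs of small control differences turned with single libraries, and the ranges are over all libraries left out in turn. For NC against NT, SYP in D11 ran from -0.15 to 0.15 (0.12 without D11 NT replicate 1), AL356234.2 from -0.056 to 0.76 in TPC1 and from -0.86 to 0.11 in D11, and F2RL1 in TPC1 from -0.48 to 0.12 (0.062 without NC replicate 1). For D11 against TPC1, BAAT in NC ran from -0.059 to 0.57 (-0.0018 without D11 NC replicate 3), GOLGA7B from -0.69 to 0.54 in NT (0.10 without TPC1 NT replicate 1) and from -0.22 to 0.66 in NC, and COL6A5 in NC from -0.53 to 1.11 (-0.0015 without TPC1 NC replicate 2). TRIM67 ran from -0.55 to 0.71 in NT (-0.42 and -0.17 without TPC1 NT replicate 2 or 3, and -0.009 with voom) and from -0.73 to 1.14 in NC (-0.27 without D11 NC replicate 1). The siDicer differences of the 7 genes kept their direction under all alternatives run. Sizes moved with the pseudocount: with 10 in place of 1, SYP was 3.12, 2.78, 2.73 and 2.75, and COL6A5 against NT 2.91 and 2.83, and with 0.1 COL6A5 against NT in TPC1 was 7.71. Depth limits COL6A5, whose NT values lie at the floor of 3 reads. The cause of these changes was not tested.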
